A study of Mus musculus with 6 samples.

Results

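The 10 genes described here form the insulin, insulin-like growth factor (IGF) and growth hormone axis of the liver: Ghr, Igf1, Igfals, Igfbp1, Igfbp2, Insr, Irs1, Irs2, Foxo1 and Ppargc1a. They were taken by gene symbol. All 10 matched 1 gene each among the 34352 genes of the deposited table with symbols, and the same identifiers were read from the FPKM table of 55335 genes. FPKM are fragments scaled to gene length and library size, so levels can be compared between genes. The livers came from C57BL/6 mice of WT genotype: 3 libraries from mice gavaged with CdCl2 (cadmium chloride) at 20 mg/kg/day until day 90, and 3 libraries from control mice gavaged at 0 mg/kg/day. The labels give male mice between 6 and 8 weeks of age, 6 in each group, and do not say how these mice map to the 3 libraries of a group or whether RNA was pooled. All 6 libraries are the input fraction of an m6A (N6-methyladenosine, a methyl mark on RNA) immunoprecipitation, which the labels describe as RNA left unbound by the antibody. A level here therefore cannot tell abundance apart from the share that was bound.

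Growth hormone from the pituitary binds its receptor on hepatocytes and, through the kinase JAK2 and the transcription factor STAT5B, drives the liver to secrete IGF-1. In blood most IGF-1 travels in a complex with a binding protein and the acid-labile subunit that Igfals encodes. Insulin binds the insulin receptor, whose substrates IRS1 and IRS2 recruit phosphatidylinositol 3-kinase and activate AKT. AKT then keeps FOXO1, a transcription factor of the fasted liver, out of the nucleus. Igfbp1 and Irs2 are well-known FOXO1 target genes, and Ppargc1a encodes PGC-1 alpha, a coactivator that works with FOXO1 in gluconeogenesis.

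Depth ran from 42115960 to 68587128 recovered reads in cadmium libraries and from 42476574 to 59095817 in control libraries, and each of the 10 genes had at least 395 reads in every library. All 6 libraries went against the label in sex: Xist, which coats the silenced X chromosome of female cells, stood at 27.1 to 35.5 FPKM in cadmium and 19.7 to 25.8 FPKM in control, and the Y-linked genes Kdm5d, Uty, Ddx3y and Eif2s3y were listed at or near 0 in every library. Every result below thus concerns libraries labelled male that carry this pattern. Cadmium replicate 2 and control replicate 1 stood apart from the rest in Alb, the albumin gene. This cadmium library had 10130 FPKM and this control library 10240 FPKM, against 17180 to 17900 FPKM in the other 4. This pair was not set apart by every measure. The 10 genes with the highest counts took up 44.6% of control replicate 1. They took up 35.4% of cadmium replicate 2, within the 33.3% to 35.9% of the other 4. Cadmium replicate 1 was far above the rest in Akt1, at 56.75 FPKM against 8.76 to 13.19 FPKM. Below, the libraries that stood apart are the pair seen in Alb, and many results are also given without them. Of 9908 genes with enough FPKM to test, limma called 779 as higher in cadmium and 180 as lower, with 0.05 as the threshold for adjusted p. All genes had a median log2 fold change of 0.09 in FPKM, -0.01 with quantile normalization and -0.06 for the deposited log2 values. Among genes called by limma 81.2% were higher in FPKM, against 53.8% with quantile normalization and 43.6% where limma was run on the deposited log2 values.

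All 10 axis genes passed the filter on low values. Foxo1 was the 1 gene of the 10 that passed the test, and it fell in cadmium. Of all tested genes 9.68% were called in either direction and 1.82% were called lower, so the axis as a list held about as many calls as the genes at large. Igfbp2 was lower in every cadmium library than in any control library but did not pass the test, and Igfbp1 was lower than 2 of the 3 control libraries. The receptor Ghr and the secreted proteins Igf1 and Igfals had slightly higher FPKM in every cadmium library, by amounts that did not pass the test. The groups did not overlap for 6 of the 10 genes, 4 with cadmium above control and 2 with cadmium below, while 33.6% of all tested genes did not overlap, 26.4% and 7.24% in these directions. An unadjusted p under 0.05 was found for 3 of the 10, Igf1, Igfbp2 and Foxo1, and for 27% of all tested genes.

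**Figure D1:**
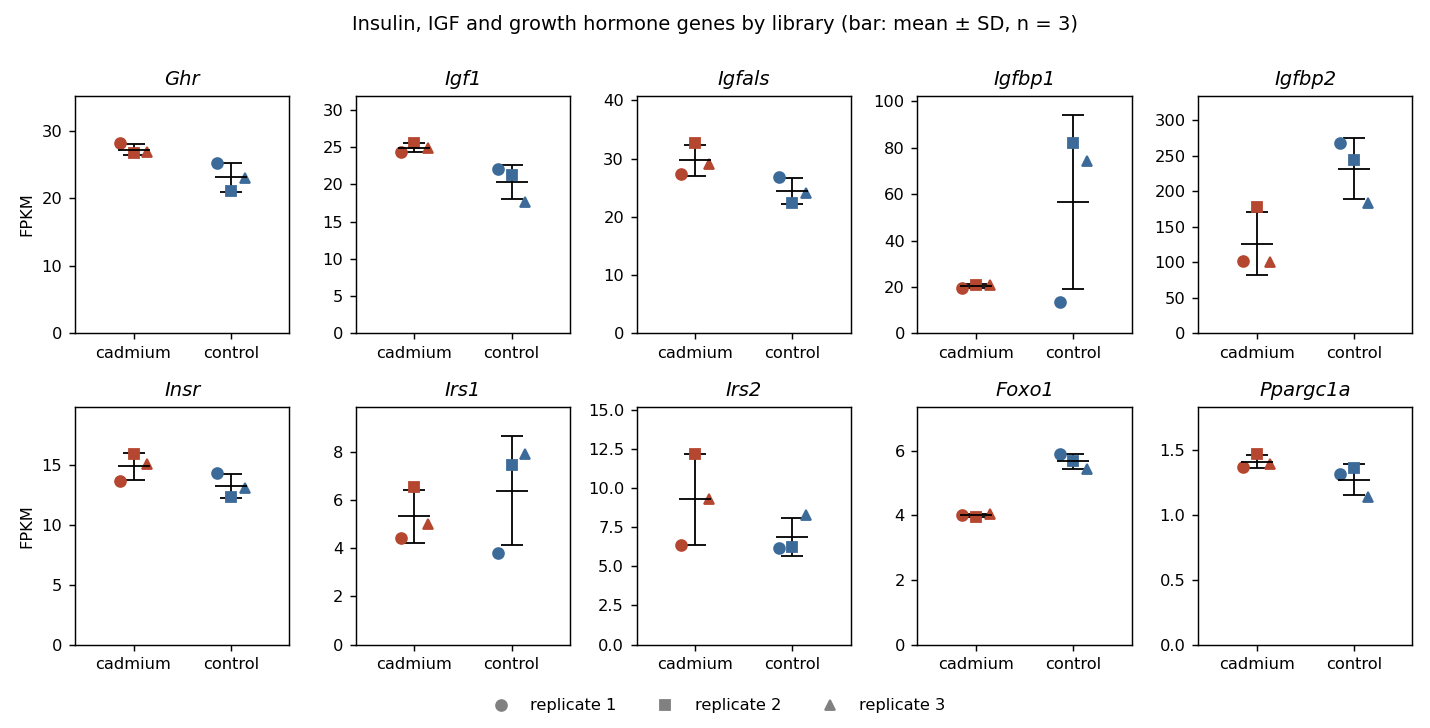
FPKM of the 10 genes in each of the 6 libraries, with symbols for replicate numbers, cadmium on the left and control on the right of each panel, and bars for the mean ± SD (n = 3). Foxo1 lay between 3.95 and 4.03 FPKM in cadmium, below the control range of 5.43 to 5.89 FPKM, and Igfbp1 in control replicate 1 lay far below the other 2 control libraries.

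In cadmium the levels ran, from high to low, Igfbp2, Igfals, Ghr, Igf1, Igfbp1, Insr, Irs2, Irs1, Foxo1 and Ppargc1a. Within that order the ranges of Igfals and Ghr overlapped, as did those of Irs2 and Irs1, and no other neighbours did. The control order was the same except that Igfbp1 stood in rank 2. There the neighbours Igfbp1 and Igfals overlapped, as did Igfals and Ghr, Ghr and Igf1, Irs2 and Irs1, and Irs1 and Foxo1.

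Ghr encodes the growth hormone receptor (ENSMUSG00000055737, chromosome 15, 3317760 to 3583492, minus strand; coordinates of all genes are GRCm38 from GENCODE). Its level was 28.2, 26.7 and 26.8 FPKM in cadmium replicates 1 to 3, against 25.3, 21.0 and 23.0 FPKM in control replicates 1 to 3. The lowest cadmium library thus lay just above the highest control library. Cadmium over control gave a log2 fold change of 0.23 (95% interval -0.03 to 0.49, adjusted p = 0.229).

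Igf1 encodes the hormone that mediates much of the action of growth hormone (ENSMUSG00000020053, chromosome 10, 87858265 to 87937042, plus strand). It stood at 24.4, 25.5 and 24.9 FPKM in cadmium, against 22.1, 21.3 and 17.7 FPKM in control, with control replicate 3 the lowest. The log2 fold change was 0.29 (95% interval 0.02 to 0.56), with an unadjusted p of 0.0407 in limma and an adjusted p of 0.164. Igf1os, annotated on the opposite strand over the start of Igf1, stood below 1 FPKM in every library. The sources used here do not say whether counting used strand.

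Igfals, the acid-labile subunit that holds IGF-1 in its circulating complex (ENSMUSG00000046070, chromosome 17, 24865997 to 24882010, plus strand), was at 27.3, 32.6 and 29.0 FPKM in cadmium, against 26.8, 22.4 and 24.0 FPKM in control. Cadmium replicate 1 lay only just above control replicate 1. Its log2 fold change was 0.27 (95% interval -0.01 to 0.56, adjusted p = 0.201). In the deposited log2 values the changes of Ghr, Igf1 and Igfals were 0.06, 0.12 and 0.10, and none was called under any alternative tried.

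Igfbp2, an IGF carrier whose liver transcript is abundant (ENSMUSG00000039323, chromosome 1, 72824503 to 72852474, plus strand), had the highest level of the 10 genes in both groups. It was at 101, 177 and 99.8 FPKM in cadmium, against 268, 244 and 184 FPKM in control. The groups did not overlap, although cadmium replicate 2 came within a few FPKM of control replicate 3. Its mean was 126 ± 44.2 FPKM in cadmium and 232 ± 43.2 FPKM in control (SD, n = 3 each), a ratio of 0.544. On the log2(FPKM + 1) scale the change was -0.91 (SE 0.26, 95% interval -1.52 to -0.30), with an adjusted p of 0.0724. It passed the threshold without cadmium replicate 2 (-1.18, adjusted p = 0.0323), without both libraries that stood apart (adjusted p = 0.0315), in the deposited log2 values (-1.09, adjusted p = 0.0427) and with voom on recovered reads (adjusted p = 0.0448). Elsewhere among the alternatives its adjusted p ran up to 0.230. The authors' deposited table gives Igfbp2 an FDR of 0.000259 beside its log2 fold change of -1.09 from a test that the sources used here do not name.

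Igfbp1 encodes an IGF carrier that insulin represses and fasting induces (ENSMUSG00000020429, chromosome 11, 7197782 to 7202546, plus strand). Its level was 19.6, 20.9 and 20.6 FPKM in cadmium, against 13.4, 82.0 and 74.3 FPKM in control. The 3 cadmium libraries were nearly alike, and they lay above control replicate 1 and far below the other control libraries. The mean was 20.4 ± 0.681 FPKM in cadmium and 56.6 ± 37.6 FPKM in control (SD, n = 3 each), and the log2 fold change of -1.07 (95% interval -2.83 to 0.70) was not called (adjusted p = 0.398). Without control replicate 1 the log2 fold change was -1.89 (adjusted p = 0.00524), and without both libraries that stood apart it was -1.90 (adjusted p = 0.00412). By batch number, which the labels give to 1 cadmium and 1 control library each, the difference of cadmium minus control was 0.52, -1.92 and -1.80 on the log2(FPKM + 1) scale. A single control library thus decides whether Igfbp1 is called. The authors' deposited table gives Igfbp1 an FDR of 0.170.

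Among the 7 IGF binding protein genes Igfbp1 to Igfbp7, Igfbp4 had the most FPKM in every library, with 49.1%, 54.6% and 57.8% of their sum in cadmium, against 49.2%, 43.0% and 47.0% in control. Igfbp2 held 29.2%, 31.6% and 25.4% of that sum in cadmium, against 43.4%, 38.5% and 33.8% in control. The sum itself was 347, 560 and 393 FPKM in cadmium, against 616, 633 and 543 FPKM in control, so cadmium replicate 2 overlapped control replicate 3. An exact permutation test, taken on both sides, gave p = 0.1 for the Igfbp2 share, the smallest that 3 against 3 libraries allow, and p = 0.2 for the sum and for the Igfbp4 share, with adjusted p = 0.2 for each over the 4 ratios and sums tested.

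The promoter letters of the insulin-regulated members are shown because Igfbp1 and Irs2 are known FOXO1 target genes, and a window of Igfals is shown beside them for its STAT consensus match. In Igfbp1 the insulin response sequence, a pair of inverted FOXO-type cores, lies just upstream of the start. Promoter windows were found in the RefSeq table (GRCm38.p6) for 9 of the 10 genes, and the 250 bases before each start were searched on both strands for 5 motifs. The FOXO-type cores searched were CAAAACA and CAAAATA as well as GTAAACA. TTCNNNGAA is the STAT consensus, and CACGTG is the E-box. Each sequence below has 50 bases, reads 5′ to 3′ on the strand of its gene, and shows matches in capitals.
Igfbp1, chr11:7197663-7197712, plus strand: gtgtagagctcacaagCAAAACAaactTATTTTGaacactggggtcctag
Irs1, chr1:82291517-82291566, minus strand: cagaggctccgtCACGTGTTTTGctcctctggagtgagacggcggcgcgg
Irs2, chr8:11008933-11008982, minus strand: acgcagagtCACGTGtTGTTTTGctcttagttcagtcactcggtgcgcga
Igfals, chr17:24878152-24878201, plus strand: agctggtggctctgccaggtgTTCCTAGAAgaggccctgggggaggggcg
Igfbp1 holds CAAAACA from position -108 to -102 and CAAAATA on the reverse strand from -97 to -91. Positions are counted from the RefSeq start. Irs1 and Irs2 each hold an E-box followed by CAAAACA on the reverse strand, and in Irs1 these overlap by the letters TG. Irs1 has a further reverse CAAAACA from -32 to -26. Igfals holds STAT consensus matches in 2 of its 3 windows, 1 of them shown, and GTAAACA on the reverse strand from -242 to -236 in the window that holds the match shown. Foxo1, Igf1, Ghr and Ppargc1a held none of the 5 motifs in their windows, and Igfbp2 held only an E-box, from -142 to -137. The last bases of the Irs1 and Irs2 windows, and of the Igfbp2 window with this E-box, lay in no GENCODE transcript. The Irs2 window lies wholly upstream of the GENCODE gene, so its positions depend on the annotation. Over all 32851 promoter windows, CAAAACA was held by 5.56%, the core CAAAATA by 3.95%, the core GTAAACA by 3.17%, the STAT consensus by 7.02% and the E-box by 6.02%. A match describes the letters only, and binding was not measured here.

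Insr, the insulin receptor (ENSMUSG00000005534, chromosome 8, 3122061 to 3279617, minus strand), stood at 13.7, 15.9 and 15.1 FPKM in cadmium, against 14.3, 12.4 and 13.1 FPKM in control. The groups overlapped through control replicate 1. A log2 fold change of 0.15 was fitted (95% interval -0.09 to 0.40, adjusted p = 0.398), and its sign turned to -0.02 in the deposited log2 values.

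Irs1 encodes the substrate that the insulin and IGF-1 receptors share with IRS2 (ENSMUSG00000055980, chromosome 1, 82233101 to 82291416, minus strand). Its level was 4.43, 6.54 and 5.02 FPKM in cadmium, against 3.79, 7.48 and 7.91 FPKM in control. As with Igfbp1, control replicate 1 was the lowest of all 6 libraries and the other 2 control libraries were the highest. The fitted log2 fold change was -0.18 (95% interval -0.81 to 0.44, adjusted p = 0.704). Without control replicate 1 it was -0.47 (adjusted p = 0.107), and it passed the threshold only where cadmium replicate 2 was left out as well (-0.60, adjusted p = 0.0315).

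Irs2, the substrate gene that FOXO1 induces in fasted liver (ENSMUSG00000038894, chromosome 8, 10984681 to 11008458, minus strand), was at 6.36, 12.2 and 9.35 FPKM in cadmium, against 6.15, 6.24 and 8.30 FPKM in control. Cadmium replicate 1 lay within the control range and the other 2 cadmium libraries above it. The fitted log2 fold change was 0.35 (95% interval -0.17 to 0.87, adjusted p = 0.352). It was 0.58 without cadmium replicate 1, 0.16 without cadmium replicate 2 and 0.09 without both libraries that stood apart, and was not called in any of these. The ratio of Irs2 to Irs1 was 1.44, 1.86 and 1.86 in cadmium, against 1.63, 0.834 and 1.05 in control, where control replicate 1 lay among the cadmium libraries (exact permutation test on both sides, p = 0.2).

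Foxo1 encodes the transcription factor at the end of the insulin pathway (ENSMUSG00000044167, chromosome 3, 52268336 to 52353221, plus strand). It stood at 4.02, 3.95 and 4.03 FPKM in cadmium, against 5.89, 5.69 and 5.43 FPKM in control. Libraries within each group were close to one another and the groups were well apart. Foxo1 fell to 4.00 ± 0.041 FPKM in cadmium, against 5.67 ± 0.232 FPKM in control (SD, n = 3 each), a ratio of 0.705. Its log2 fold change was -0.42 on the log2(FPKM + 1) scale (SE 0.08, 95% interval -0.59 to -0.24, adjusted p = 0.0216). In the deposited log2 values, where the added 1 is small beside the reads, it was -0.68 (adjusted p = 0.00669).

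The difference in Foxo1 had the same sign in all 3 batches, at -0.46, -0.43 and -0.35 on the log2(FPKM + 1) scale. With the batch number as a block the adjusted p was 0.0675. The call was kept after quantile normalization (adjusted p = 0.0189) and without control replicates 1 or 2 (0.0395 and 0.0495). It was lost without a filter on low values (0.0554), without cadmium replicates 1, 2 or 3 (0.0690, 0.0555 and 0.101), without control replicate 3 (0.0537) and without both libraries that stood apart (0.0689). The authors' deposited table gives Foxo1 an FDR of 7.48e-09. Gm38034, annotated on the same strand inside the span of Foxo1, was at 0.713 to 1.34 FPKM in cadmium and 1.251 to 2.99 FPKM in control, and reads from the 2 genes may be shared. The genes whose pattern over the 6 libraries was most like that of Foxo1 were Ifrd2 and Trim8, with root mean square differences of 0.0304 and 0.0374 between centred log2(FPKM + 1) values.

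Ppargc1a, the PGC-1 alpha gene (ENSMUSG00000029167, chromosome 5, 51454250 to 51567726, minus strand), had the lowest level of the 10, at 1.37, 1.47 and 1.40 FPKM in cadmium, against 1.32, 1.36 and 1.14 FPKM in control. The lowest cadmium library and the highest control library were almost equal. The log2 fold change was 0.09 (95% interval -0.09 to 0.26, adjusted p = 0.502), and it turned to -0.03 both in the deposited log2 values and with quantile normalization.

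**Figure D2:**
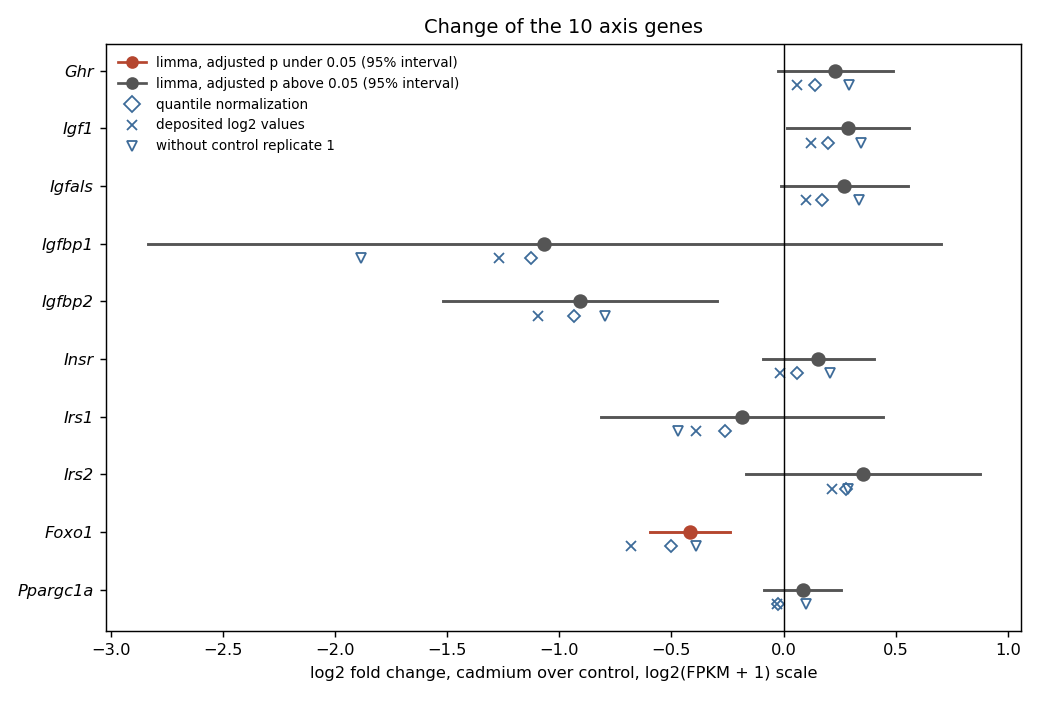
Log2 fold change of cadmium over control for the 10 genes on the log2(FPKM + 1) scale, with 95% intervals from limma, and below each the value after quantile normalization, in the deposited log2 values and without control replicate 1. Foxo1 at -0.42 is the gene that passed the test, the intervals of Igfbp2 and Igf1 do not reach 0 although neither gene passed, and Igfbp1 moves to -1.89 without control replicate 1.

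The insulin and IGF receptor signalling genes around these members mostly had small differences. Akt1, named after its values were seen, was at 56.75 FPKM in cadmium replicate 1 and 8.76 to 13.19 FPKM in the other libraries. Its log2 fold change of 0.68 (SE 0.71) thus rests on that library and was not called in limma (adjusted p = 0.593). Of 26 listed genes 23 were tested, 2 were called higher, 1 was called lower and 20 were not called, against 7.86% and 1.82% of all genes called higher and lower, with a median log2 fold change of 0.05 against 0.09 over all genes. Pik3r1, the regulatory subunit that brings phosphatidylinositol 3-kinase to IRS proteins, fell to 5.13 ± 0.472 FPKM in cadmium, against 7.91 ± 0.423 FPKM in control (SD, n = 3 each; log2 fold change -0.54, adjusted p = 0.0182). Tsc1, a brake on mTORC1, was at 2.72 ± 0.279 FPKM in cadmium and 1.596 ± 0.233 FPKM in control (log2 fold change 0.52, adjusted p = 0.0229). Grb14, an adaptor that inhibits the insulin receptor, was at 3.50 ± 0.263 FPKM in cadmium and 2.27 ± 0.393 FPKM in control (log2 fold change 0.46, adjusted p = 0.0405). Igf1r, the IGF-1 receptor, did not pass the filter and stood at 0.364 to 0.486 FPKM in cadmium and 0.301 to 0.374 FPKM in control. With the batch block 0 genes of this list were called, at adjusted p of 0.0539, 0.0516 and 0.108 for Pik3r1, Tsc1 and Grb14. Pik3r1 likewise missed the threshold without cadmium replicate 1 (0.0647), cadmium replicate 3 (0.0923) or control replicate 3 (0.0567), Tsc1 without those 3 libraries or control replicate 2 (0.0575 to 0.0976), and Grb14 without any 1 library (0.0573 to 0.124). After quantile normalization Tsc1 and Grb14 missed the threshold as well (0.0631 and 0.0672).

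The IGF carriers outside the 10 genes included 1 call. Of 11 listed genes 5 were tested, and Igfbp7, a carrier-related protein of vessel walls and stroma, was called higher at 45.6 ± 6.36 FPKM in cadmium and 28.3 ± 3.05 FPKM in control (log2 fold change 0.67, adjusted p = 0.0348). Over all genes 7.86% were called higher and 1.82% lower. The median of the 5 was 0.38. The call was lost with the batch block (0.0536), after quantile normalization (0.0851), in the deposited log2 values (0.0594) and without any 1 library (0.0532 to 0.103). Stellate cell and fibroblast markers also differed between the groups: 7 of 8 tested were called higher, against 7.86% of all genes. The 9 listed summed to 37.03 to 40.94 FPKM in cadmium and 16.7 to 25.3 FPKM in control. Among the 7 called, Col1a1 was at 0.8385 to 0.8973 FPKM in control. It was tested only through cadmium, where it is high, so its call is no support for the count. Pdgfrb was below 1 FPKM in control replicate 1, and cadmium, where it is high, was enough for it to be tested. Of the 8 sinusoidal endothelial markers 1 was called higher, again against 7.86% of all genes. Their sums were 35.8 to 47.7 FPKM in cadmium and 27.4 to 39.9 FPKM in control. That call was Lyve1, below 1 FPKM in control replicates 1 and 2. Cadmium, where it is high, was enough for it to be tested. In bulk tissue more cells of a type and more RNA per cell cannot be told apart, and the part of these markers in the level of Igfbp7 was not tested.

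Among growth hormone receptor signalling genes 2 of 13 tested were called higher and 0 lower, against 7.86% and 1.82% of all genes, with a median log2 fold change of 0.29. Stat5b, the factor that carries the growth hormone signal to the genome, stood at 12.3, 13.4 and 14.5 FPKM in cadmium, against 8.11, 7.28 and 7.46 FPKM in control. Every cadmium library lay above every control library. It rose by 0.74 on the log2(FPKM + 1) scale (SE 0.10, adjusted p = 0.0101), a call that was lost where cadmium replicate 3 was left out (0.0547). Ptpn6, a phosphatase of hematopoietic cells that dampens JAK2, was called higher at 4.62 ± 0.254 FPKM in cadmium and 3.07 ± 0.520 FPKM in control (adjusted p = 0.0396). Of the 6 single libraries, control replicate 2 was the one whose removal left that call standing, and adjusted p was 0.0665 to 0.149 without each of the others. It was also lost with the batch block (0.0701), with quantile normalization (0.0539) and with the deposited log2 values (0.0901). Of 9 tested Kupffer cell and macrophage markers 3 were called higher, Adgre1, Cd68 and Lyz2, and 0 lower, against 7.86% and 1.82% of all genes. The 10 listed summed to 82.1 to 94.8 FPKM in cadmium and 40.5 to 69.6 FPKM in control. Cd68 was below 1 FPKM in control replicates 1 and 3, and cadmium, where it is high, was enough for it to be tested. Clec4f, Cd5l, Csf1r and C1qa had positive changes without a call. Vsig4 and Marco had log2 fold changes of -0.19 and -0.05, also without a call. Timd4 did not pass the filter, at 0.0684 to 0.111 FPKM in cadmium and 0.396 to 0.725 FPKM in control. The part of these markers in the level of Ptpn6 was not tested.

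Growth hormone also sets the sex bias of mouse liver through its pulse pattern, so genes known to follow it were listed by sex. The male-biased genes were mixed in level, and examples named after their values were seen show this. Cyp4a12a was listed at 0 in all but cadmium replicate 2, where it stood at 0.0202 FPKM, and Hsd3b5 lay between 0.0364 and 0.0758 FPKM in cadmium and between 0.0178 and 0.547 FPKM in control. Mup3, by contrast, stood at 454 to 764 FPKM in cadmium and 224 to 628 FPKM in control, and Serpina1e at 81.5 to 96.2 FPKM in cadmium and 62.55 to 81.8 FPKM in control. Of the 20 male-biased genes 14 were tested, 0 called higher and 2 called lower, against 7.86% and 1.82% of all genes. Without control replicate 1 the counts were 1 higher and 2 lower, without cadmium replicate 2 they were 0 and 0, and without both they were 2 and 1. Mup7, a major urinary protein, fell to 0.871 ± 0.461 FPKM in cadmium, against 3.37 ± 1.07 FPKM in control (log2 fold change -1.22, adjusted p = 0.0371), and Gstp1, a glutathione transferase, to 69.6 ± 9.11 FPKM, against 114 ± 14.4 FPKM in control (-0.70, adjusted p = 0.0368). Mup genes are near-identical and can share reads. Among the 6 single libraries, both calls survived only the removal of control replicate 1 (up to 0.108 for Mup7 and 0.143 for Gstp1 in the others), and Gstp1 lost its call with the batch block (0.102). Mup7 also missed the threshold with a pseudocount of 0.1 (0.0565) and without both libraries that stood apart (0.0552). It was below 1 FPKM in cadmium replicates 1 and 2, so control, where it is high, was enough for it to be tested. Where 1 FPKM was asked of all 6 libraries Mup7 was not tested, and of 10 genes 0 were called higher and 1 lower.

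Of the 20 female-biased genes 19 were tested, 5 called higher and 1 called lower, with a median log2 fold change of 0.15. Over all genes 7.86% were called higher and 1.82% lower. Without control replicate 1 the list held 4 called higher and 4 lower, with a median of -0.10, and without cadmium replicate 2 as well it held 5 and 4, with a median of -0.04. A1bg, a plasma glycoprotein of female mouse liver, showed the largest of these changes, at 23.8, 14.4 and 36.8 FPKM in cadmium, against 1.015, 0.466 and 1.295 FPKM in control. Every cadmium library lay more than 10 FPKM above every control library, which made a difference of 3.69 on the log2(FPKM + 1) scale (SE 0.35, adjusted p = 0.00884). Sult3a1, a sulfotransferase, rose to 34.7 ± 7.92 FPKM in cadmium, against 7.78 ± 2.38 FPKM in control (2.03, adjusted p = 0.00843). Atp6v0d2, a proton pump subunit, rose to 6.80 ± 0.990 FPKM, against 2.65 ± 0.345 FPKM in control (1.09, adjusted p = 0.00809). A1bg was below 1 FPKM in control replicate 2, and cadmium, where it is high, was enough for it to be tested. Where 1 FPKM was asked of all 6 libraries A1bg was not tested. Of 17 genes 4 were then called higher and 1 lower, with a median of 0.05, against 0.08 over all genes. The calls of A1bg, Sult3a1 and Atp6v0d2 were kept with the batch block, with quantile normalization, in the deposited log2 values and without any 1 library. Cyp2c40 and Cyp2c69, named after their values were seen, were the other 2 called higher (adjusted p = 0.0133 and 0.0338). They are close paralogs that can share reads, and with the batch block both calls were lost (0.0515 and 0.0968). Leaving out cadmium replicate 3 gave Cyp2c40 an adjusted p of 0.0547, and leaving out any 1 library but control replicate 3 gave Cyp2c69 values of 0.0531 to 0.103. Without both libraries that stood apart the adjusted p of Cyp2c69 was 0.091. Acot3, an acyl-CoA thioesterase, was the gene called lower (-1.51, adjusted p = 0.0114, and 0.0508 without cadmium replicate 3).

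**Figure D3:**
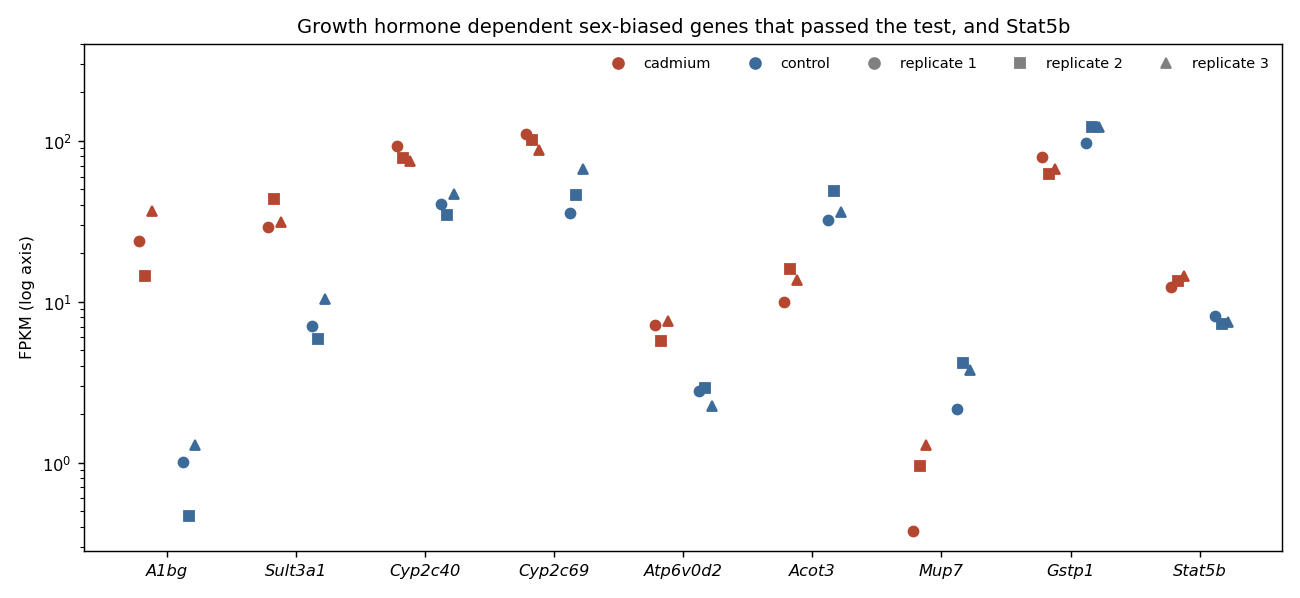
FPKM on a log axis in each of the 6 libraries for the growth hormone dependent sex-biased genes that passed the test and for Stat5b, with cadmium left of control for each gene. A1bg stood at 14.4 to 36.8 FPKM in cadmium, above the control range of 0.466 to 1.295 FPKM, while Mup7, Gstp1 and Acot3 were lower in every cadmium library than in any control library.

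Among genes that FOXO1 induces and insulin represses, those called were higher in cadmium. Of 17 listed symbols, which include an old and a new name of G6pc, 16 were in the FPKM table and 15 were tested, with 4 called higher and 0 lower, against 7.86% and 1.82% of all genes, and a median log2 fold change of 0.26. Without cadmium replicate 2 the counts were 3 and 2, without control replicate 1 they were 2 and 0, and without both they were 3 and 1. The 4 called higher were Sesn1 and Sesn3, sestrins that restrain mTORC1, Ccng2, an atypical cyclin, and Cited2, a transcriptional coregulator. Sesn1 rose to 3.23 ± 0.251 FPKM in cadmium, against 1.86 ± 0.182 FPKM in control (0.57, adjusted p = 0.0133), and Ccng2 to 1.91 ± 0.365 FPKM, against 0.796 ± 0.205 FPKM in control (0.69, adjusted p = 0.0186). Ccng2 reached 1 FPKM in 3 cadmium libraries and 1 control library, so the group where it is high was enough for it to be tested. Where 1 FPKM was asked of all 6 libraries it was not tested, and the median of the list was 0.03. The adjusted p of Sesn3 and Cited2 were 0.0391 and 0.0452, and both missed the threshold with quantile normalization (0.0848 and 0.0748) and with the deposited log2 values (0.0680 and 0.1003). Cited2 also missed it with the batch block (0.0584). Without cadmium replicate 3 the adjusted p of Sesn1, Ccng2, Sesn3 and Cited2 were 0.0652, 0.0755, 0.131 and 0.163. Ccng2 was likewise lost without cadmium replicate 1 or control replicates 2 or 3 (0.0503 to 0.0582), Sesn3 was kept only without cadmium replicate 2, and Cited2 was lost without any 1 library (from 0.0536).

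Both gluconeogenic enzymes of the list, named after their values were seen, had lower means in cadmium. Pck1, which encodes the enzyme that commits carbon to gluconeogenesis, was at 185, 399.6 and 289.7 FPKM in cadmium, against 656, 627 and 471 FPKM in control. Its groups did not overlap, and its log2 fold change of -1.05 was not called (adjusted p = 0.0657). G6pc, the glucose-6-phosphatase gene, was at 17.9, 62.1 and 39.6 FPKM in cadmium, against 43.9, 56.0 and 95.3 FPKM in control, with overlapping groups (-0.78, adjusted p = 0.384). In the deposited log2 values 2 genes of this list were called higher, Sesn1 and Ccng2, and 2 lower, Pck1 (-1.24, adjusted p = 0.0404) and Klf15, a fasting-induced transcription factor (-0.85, adjusted p = 0.0237).

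The reverse list, of genes that insulin induces, held 0 calls in limma among 11 tested. An unadjusted p under 0.05 was found for 2 of them, and for 27% of all tested genes. The median log2 fold change was 0.08. Thrsp, a regulator of lipogenesis, had the smallest p, at 77.0, 19.5 and 29.0 FPKM in cadmium, against 134, 77.6 and 224 FPKM in control. Cadmium replicate 1 came just below the lowest control library, so the groups did not overlap, and the log2 fold change of -1.88 was not called (adjusted p = 0.122). With voom on recovered reads and in the deposited log2 values this list held 0 calls as well, while 1 gene was called higher without cadmium replicate 2 and 1 lower without control replicate 1.

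Of the partners and relatives of PGC-1 alpha, 10 were tested, 0 called higher and 1 lower, against 7.86% and 1.82% of all genes. The median log2 fold change of the list was -0.08. Pprc1, a PGC-1 related coactivator, fell to 0.895 ± 0.183 FPKM in cadmium, against 1.46 ± 0.111 FPKM in control (SD, n = 3 each; -0.38, adjusted p = 0.0433). It reached 1 FPKM in 1 cadmium library and 3 control libraries, so control, where it is high, was enough for it to be tested. Where 1 FPKM was asked of all 6 libraries it was not tested and 0 of 8 genes were called, while without cadmium replicate 2 there were 2 called lower. The call was kept with quantile normalization (0.0276) and with the deposited log2 values (0.0140). It was lost with the batch block (0.0970) and without any 1 library but cadmium replicate 2 (0.0709 to 0.155). In the deposited log2 values Esrra, a nuclear receptor that PGC-1 alpha activates, and Nr1h4, the bile acid receptor FXR, were called lower too (-0.80 and -0.49, adjusted p = 0.0436 and 0.0356).

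The glucagon and CREB pathway, which induces Ppargc1a in fasting, held 0 calls in limma among 10 tested, and 0 calls with voom. In limma 3 of the 10 had an unadjusted p under 0.05, as did 27% of all tested genes. Sik1, a CREB target whose kinase restrains the coactivators of CREB, had the smallest p. It stood at 2.09, 2.90 and 2.35 FPKM in cadmium, against 4.40, 13.6 and 11.9 FPKM in control. The groups did not overlap, and control replicate 1 lay well below the other 2 control libraries. The log2 fold change of -1.55 was not called (adjusted p = 0.0676). Without control replicate 1 it was -2.003 (adjusted p = 0.00524), and without robust moderation the adjusted p was 0.0425, so that 1 gene of the list was called in either setting.

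**Figure D4:**
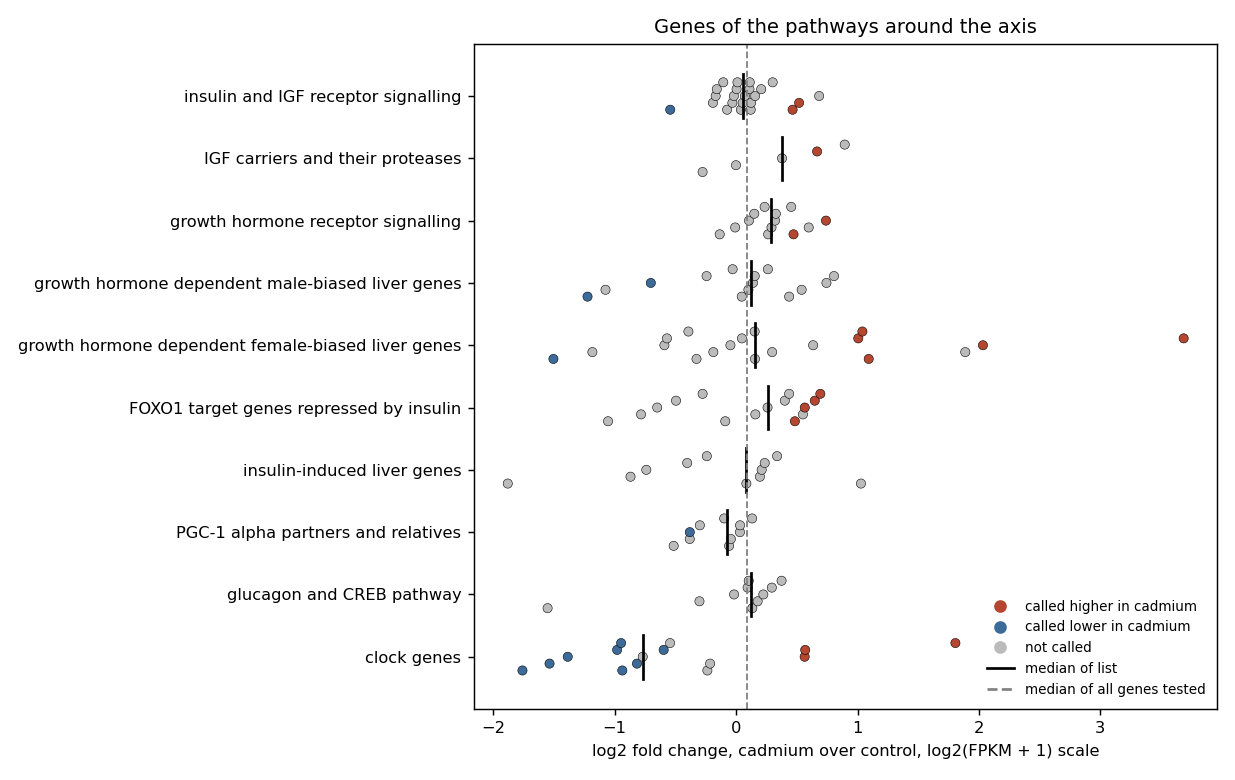
Log2 fold change of cadmium over control on the log2(FPKM + 1) scale for every tested gene of the 10 pathway lists, 1 row per list, with called genes marked and the list median drawn. The clock genes had a median of -0.77, while the medians of the other 9 lists lay between -0.08 and 0.38, against 0.09 over all genes.

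Other measures also differed between cadmium and control, and whether they moved with the axis genes was not tested. Clock genes, which set daily rhythms in liver and are tied to feeding, differed widely. Of 15 tested, 3 were called higher and 8 lower, against 7.86% and 1.82% of all genes, with a median log2 fold change of -0.77. Per2, a repressor of the clock, fell to 1.55 ± 0.174 FPKM in cadmium, against 6.60 ± 2.07 FPKM in control (-1.54, adjusted p = 0.0117), as did Per3 (-0.95, adjusted p = 0.00688) and Ciart (-1.76, adjusted p = 0.00460). Ciart was below 1 FPKM in all 3 cadmium libraries and was tested only through control, where it is high, so its place among the calls is no support for the count. Where 1 FPKM was asked of all 6 libraries, 2 of 12 clock genes were called higher and 6 lower. Nr1d1, the repressor REV-ERB alpha, rose to 32.1 ± 2.52 FPKM, against 8.84 ± 3.24 FPKM in control (1.81, adjusted p = 0.0114). With the batch block 1 clock gene was called higher and 4 lower. Without cadmium replicate 3 the counts were 0 and 2, with adjusted p of 0.0515 for Nr1d1 and 0.0564 for Per2. Without both libraries that stood apart the counts were 2 and 7, and Nr1d1 missed the threshold (adjusted p = 0.0684). The sources used here give neither the time of day at sampling nor the feeding state, and the part of either in the levels of Foxo1, Igfbp1, Igfbp2, Irs1, Irs2 and Pck1 was not tested.

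The tissue label could be checked on the 10 hepatocyte markers. They summed to 21160 to 30980 FPKM in cadmium and 19500 to 28440 FPKM in control. Of these markers 1 was called higher, Fgb, and 1 lower, Tat, against 7.86% and 1.82% of all genes. Tat, tyrosine aminotransferase, is itself induced in fasting and stood at 139 to 247 FPKM in cadmium and 353 to 505 FPKM in control. The cholangiocyte markers had 1 gene tested and 0 called, and their sums were 25.7, 7.56 and 22.6 FPKM in cadmium, against 6.23, 9.96 and 8.70 FPKM in control. Of the 6 pancreas markers 5, the insulin genes Ins1 and Ins2 among them, were listed at 0 in every library. The part of shifts in cell makeup in the levels of the axis genes was not tested.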

How the data were processed

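Liver RNA of the input fraction was measured in 3 cadmium and 3 control libraries. The authors deposited FPKM per gene, and a second deposited table gives log2 values of reads divided by a factor per library, with a log2 fold change, a p-value and an FDR per gene from a test not given in the sources used here. The submitters' processing notes name cutadapt 1.1.8, STAR 2.7.1a, SAMtools 1.3.1, DESeq2 and the mm10 build, without roles. Undoing the deposited log2 gave whole reads for 100% of values (tolerance 0.05 read).

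Values of log2(FPKM + 1) in cadmium and control were compared with limma 3.58.1 (R 4.3.3), using trend and robust moderation and testing both sides. The 9908 genes tested had 1 FPKM or more in 3 or more of the 6 libraries. Benjamini-Hochberg adjustment ran over all of them, and the threshold was 0.05. The procedure was tested on simulated data. A fold change on this scale understates the change of low genes. Since the labels do not tie libraries to separate mice, p-values measure the spread between libraries, which may be technical. Errors are SD.

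Alternatives were a pseudocount of 0.1, other filters, quantile, trimmed mean and upper quartile scaling, the deposited log2 values, voom on the recovered reads, no robust moderation, and leaving out libraries. Where a fit left out a library, its group kept 2. The labels give each batch number to 1 cadmium and 1 control library, so the batch pairs them and was tried as a block. Deviations from the group means correlated at -0.211, -0.233 and -0.021 within these pairs. Between cadmium and control libraries of unlike number the correlations ran from -0.101 to 0.285.

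All 10 axis genes are named, and of each pathway list the called genes, up to the 4 with the smallest p, or else the 1 with the smallest p. The members and lists were chosen with earlier results of these data known. Motifs were searched in RefSeq promoter windows (GRCm38.p6), and gene coordinates came from GENCODE (GRCm38).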

Additional observations from a re-analysis of the deposited data

How the results depend on the processing

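Over all genes, 959 were called, against 248 with the replicate block, 37 of 34351 genes tested without a filter on low values, and 101 to 781 when each library was left out in turn, the lowest without cadmium replicate 3. The split of calls turned with the scaling: 347 higher and 298 lower after quantile normalization, 372 and 291 with trimmed mean scaling, 510 and 233 with upper quartile scaling, and 381 and 493 in the deposited log2 values, where the median of all genes stood at -0.06. Of the 10 axis genes 1 was called, against 0 with the replicate block, 0 without a filter, 2 in the deposited log2 values, 2 with voom on recovered reads, 3 without control replicate 1 and cadmium replicate 2, and 0 to 2 when each library was left out. Insr changed sign, to -0.0178 with voom and -0.0152 in the deposited log2 values, and so did Ppargc1a, to -0.0263 after quantile normalization, -0.0305 with voom and -0.0285 in the deposited log2 values. The other 8 axis genes kept their sign under all 17 alternatives. Of the 24 axis genes and named list genes called, 13 were called with the replicate block, 0 without a filter (lowest adjusted p 0.0554), 18 after quantile normalization, 19 in the deposited log2 values and 5 without cadmium replicate 3. The cause of these shifts was not tested. Each axis gene had at least 395 reads in every library, and with 3 libraries a group the 95% interval of the Igfbp1 change still ran from -2.83 to 0.70.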
